A study of Mus musculus with 9 samples.

Results

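The genes of the mitochondrial respiratory chain were examined in hippocampal RNA-seq libraries of N4 Ube3a m-/p+ mice, an Angelman syndrome model, given Ant-134 or Scr. Members were the protein-coding rows of the gene count table whose symbol begins with Nduf, Uqcr, Sdh, Cox4, Cox5, Cox6, Cox7, Cox8, Atp5 or mt-. This gave 111 of 54532 genes, under 110 symbols because Atp5o has 2 entries. Of these, 97 encode structural subunits and 14 encode assembly factors or proteins of related function. Nuclear chromosomes carry 98 of them and the mitochondrial genome carries 13. A minimum of 10 counts in every library left 108 members for testing. The others were Cox8c and the second Atp5o entry, listed at 0 in all 9 libraries, and Cox7b2, with 2 to 16 counts.

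All 9 mice lacked the maternal Ube3a allele, kept the paternal one and came from 4 generations of backcrossing to 129Sv/Ev. Ant-134 mice (n = 5) received Ant-134, a locked nucleic acid antimiR against miR-134, and 4 littermates received Scr, a scrambled antimiR, each at 0.5 nmol into the ventricle at P21. Every mouse underwent audiogenic seizure tests at P22, P24 and P26, and the ipsilateral hippocampus was taken at P27, so that each library stands for 1 mouse and for tissue that had been exposed to sound-evoked seizures. No wild-type or uninjected mice were analysed here, the sex of these mice is not in the labels, and the comparison is of Ant-134 with Scr within the mutant genotype only.

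The respiratory chain passes electrons from NADH (complex I) and succinate (complex II) through complex III to oxygen at complex IV, and complex V uses the resulting proton gradient to make ATP. Complexes I, III, IV and V combine subunits encoded in the nucleus with subunits encoded in the mitochondrial genome, whereas complex II is wholly nuclear. Neurons depend heavily on this pathway to fuel ion pumping and synaptic transmission. The questions put to the data were whether transcripts of any complex differed between Ant-134 and Scr, and whether nuclear and mitochondrially encoded members behaved alike.

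Ant-134 is directed against the following mature miRNA, shown because its seed (bases 2 to 8, in capitals) defines the sites searched for in the members. The sequence is the RefSeq entry on GRCm38.p6, plus strand, chr12:109734145-109734166.

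mmu-miR-134-5p: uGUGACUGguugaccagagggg

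Taking the longest 3′ UTR listed for each gene, the seed match CAGTCAC was found in 6 of 96 tested members with a 3′ UTR (6.25%) and in 1797 of 15278 tested genes overall (11.8%). The members have short 3′ UTRs, with a median of 235 bases against 1164 bases over all tested genes. The 6 sites are printed below with their flanks, from GENCODE vM21 transcripts, with the seed match in capitals.

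Ndufb2: acagagaaCAGTCACtttaaacc
Ndufb8: agcaataaCAGTCACcaggatgg
Sdhaf2: cagacacaCAGTCACaattaaag
Sdhaf3: aaagtttcCAGTCACacttttac
Cox8a: ttcaattcCAGTCACctcttctg
Atp5g1: cctgtcccCAGTCACattatttt

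A match is a description of the letters and not evidence of targeting. In Sdhaf2, Sdhaf3 and Atp5g1 the match was followed by an A. None of the 6 genes passed the test described below. Their log2 fold changes (Ant-134 minus Scr) were 0.13 for Ndufb2, -0.01 for Ndufb8, 0.04 for Sdhaf2, 0.11 for Sdhaf3, 0.06 for Cox8a and 0.07 for Atp5g1.

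The libraries held 28583298 to 38431058 counts with Ant-134 and 31985959 to 41978113 with Scr. Transcripts of the 10 hippocampal principal neuron markers summed to 6118 to 7269 CPM (counts scaled by library size) and those of 8 thalamic markers to 168.4 to 227.2 CPM. Choroid plexus carried over to very different degrees, with the 10 markers of its epithelium at 73.92 to 2624 CPM. The 827 of 19782 genes with an unadjusted p below 0.05 in edgeR's quasi-likelihood test make up 4.18% (294 higher, 1.49%, and 533 lower, 2.69%), and 0 genes passed after Benjamini-Hochberg adjustment (DESeq2 gave 1027 of 37435 genes, 2.74%, before adjustment). The lower genes included 6 of 10 microglial, 5 of 7 meningeal fibroblast and 2 of 7 ependymal markers. In bulk tissue, fewer cells of a type and less RNA per cell cannot be told apart.

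Levels per gene length were compared in the deposited FPKM values (fragments scaled to gene length and library size). Nuclear subunits of complex IV stood highest, with a median of 138 FPKM over 11 genes, and Cox8a was the most abundant nuclear member at a mean of 830 FPKM (745.1 to 894 across the 9 libraries). Medians were 82.5 FPKM over 8 genes in complex III, 64 FPKM over 16 genes in complex V, 50.5 FPKM over 4 genes in complex II and 46.8 FPKM over 36 genes in complex I. Ranges within a complex were wide, so that the complexes overlapped. In complex I the level ran from 3.62 FPKM for Ndufb2 to 124 FPKM for Ndufa1, both accessory subunits of the membrane arm. Sdha, the flavoprotein that oxidises succinate, led complex II at 72.1 FPKM, and Uqcr10 led the nuclear genes of complex III at 186 FPKM. Atp5a1 and Atp5b, which form the catalytic head of ATP synthase, had 245.7 and 222.6 FPKM.

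**Figure D1:**
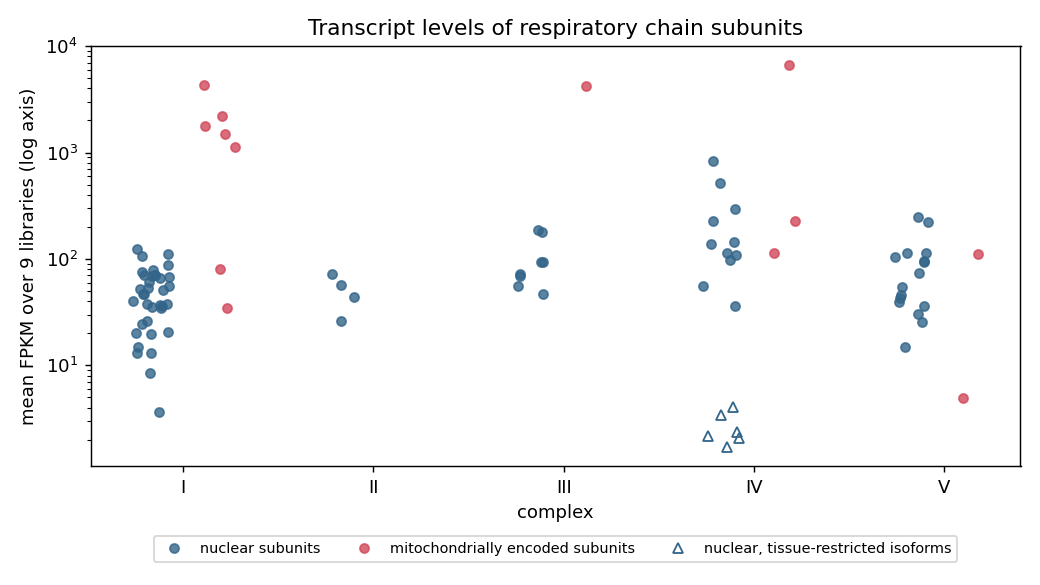
Mean FPKM over the 9 libraries (log axis) of each tested structural subunit, by complex. Filled blue points are nuclear subunits, open triangles are tissue-restricted nuclear isoforms of complex IV, and red points are mitochondrially encoded subunits. The triangles lie between 1.708 and 4.057 FPKM, below every other nuclear gene of complex IV, and the red points span 4.93 to 6640 FPKM.

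Complex IV has several subunits with a common and a tissue-restricted form, and the common form prevailed at each of the 6 pairs measured, in all 9 libraries. Cox4i1 was 140 to 250 times as abundant as Cox4i2, the form described in lung and in hypoxia. The heart and muscle forms were likewise low. Cox6a1 exceeded Cox6a2 by 83.7 to 185 times, and Cox7a2 exceeded Cox7a1 by 44.4 to 58.9 times. Cox6b1 exceeded Cox6b2, known from testis, by 90.2 to 171 times, and Ndufa4 exceeded Ndufa4l2 by 49.9 to 67.8 times. For none of these 5 pairs did the ranges of Ant-134 and Scr ratios separate. The ratio of Cox8a to Cox8b was far more variable, from 68.9 to 863.

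Cox8b, the heart and muscle form of subunit VIII, had 4.60, 0.99, 1.42, 0.52 and 0.46 CPM in the 5 Ant-134 libraries and 0.34, 0.99, 1.41 and 0.35 CPM in the 4 Scr libraries. Ant-134 replicate 1 stood far above all others, and among the remaining 8 libraries the groups overlapped almost completely. The log2 fold change of 1.04 had a 95% interval of -0.81 to 2.88 (edgeR p = 0.23; two-sided exact permutation p = 0.389) and was 0.12 without that library. Ttr, the transthyretin gene that marks choroid plexus, had 2417, 276.1, 638.4, 46.05 and 76.21 CPM with Ant-134 and 241.1, 1006, 1932 and 56.91 CPM with Scr. Cox8b and Ttr were thus highest in the same library, and the part of choroid plexus in the Cox8b values was not tested. The 3 genes for the proton-channel c subunit of complex V, which encode the same mature protein, differed less, with 94.07 FPKM for Atp5g3, 45.7 for Atp5g2 and 25.62 for Atp5g1.

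Between treatments, 3 of 108 members (2.78%) passed the study's threshold of an unadjusted p below 0.05 in edgeR, all higher with Ant-134. The same fit called 4.18% of all tested genes (1.49% higher, 2.69% lower). The 2.74% called in either direction by DESeq2 comes from another fit, over 37435 genes, and is not a like comparison. Within edgeR the members' share in either direction was below that of all genes and their share called higher was above it. Both rest on a count of 3, which ranged from 0 to 14 when 1 mouse was left out. None passed adjustment (adjusted p = 0.998 for each, edgeR). The CPM of the groups did not overlap for 1 member (0.926%), against 1.54% of all tested genes.

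Cox7a2l encodes a factor that joins complexes III and IV into supercomplexes. It had 96.2, 89.2, 92.9, 85.2 and 92.7 CPM with Ant-134 and 83.9, 87.9, 79.6 and 85.0 CPM with Scr. All but 1 of the Ant-134 libraries lay above the highest Scr library. The log2 fold change was 0.12 (SE 0.05, edgeR p = 0.022; two-sided exact permutation p = 0.0317). Part of its sequence is shared with the processed pseudogene Gm6969, which holds 13.8% of its 50-base windows, and with the counts of Gm6969 added the log2 fold change was 0.08 and did not pass the test.

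Ndufa11, a membrane-arm subunit of complex I, had 62.4, 58.1, 60.2, 54.9 and 65.2 CPM with Ant-134 and 54.8, 59.4, 55.1 and 49.4 CPM with Scr. The groups overlapped through Ant-134 replicate 4 and Scr replicate 2. Ant-134 exceeded Scr by a log2 fold change of 0.14 (SE 0.06, edgeR p = 0.039; two-sided exact permutation p = 0.0714). Ndufa11 was on the study's own list from these samples, so that its direction is not independent evidence.

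Ndufaf1 is an assembly factor for the membrane arm of complex I. It had 18.3, 15.9, 15.4, 18.3 and 16.5 CPM with Ant-134 and 15.2, 15.2, 13.4 and 16.1 CPM with Scr. The Ant-134 values extended higher, and the groups overlapped between 15.4 and 16.1 CPM. Ant-134 exceeded Scr by a log2 fold change of 0.18 (SE 0.08, edgeR p = 0.044; two-sided exact permutation p = 0.0635). The same holds for Ndufaf1, which was on that list too.

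Ndufa10, an accessory subunit of complex I, was the member whose groups did not overlap. It had 129.5, 128.8, 130.9, 128.4 and 133.9 CPM with Ant-134 and 125.7, 124.5, 120.6 and 126.7 CPM with Scr. The difference was small, with a log2 fold change of 0.07 (SE 0.04, edgeR p = 0.089, two-sided exact permutation p = 0.00794). It did not reach the threshold in edgeR. The permutation p is the smallest these 9 mice can give. It follows from the lack of overlap by which Ndufa10 was picked, so it is not separate evidence. The groups did not overlap for 1.54% of all tested genes either. The called members, Cox7a2l, Ndufa11 and Ndufaf1, each lost their call in at least 1 leave-one-out fit. Without Ant-134 replicate 1 or without Scr replicate 3, edgeR called 0 members, while all genes called in the same fits made up 4.97% and 3.14%. Without Ant-134 replicate 4 the count was 14 of 108 (12.96%), all higher, against 4.90% of all genes in either direction.

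**Figure D2:**
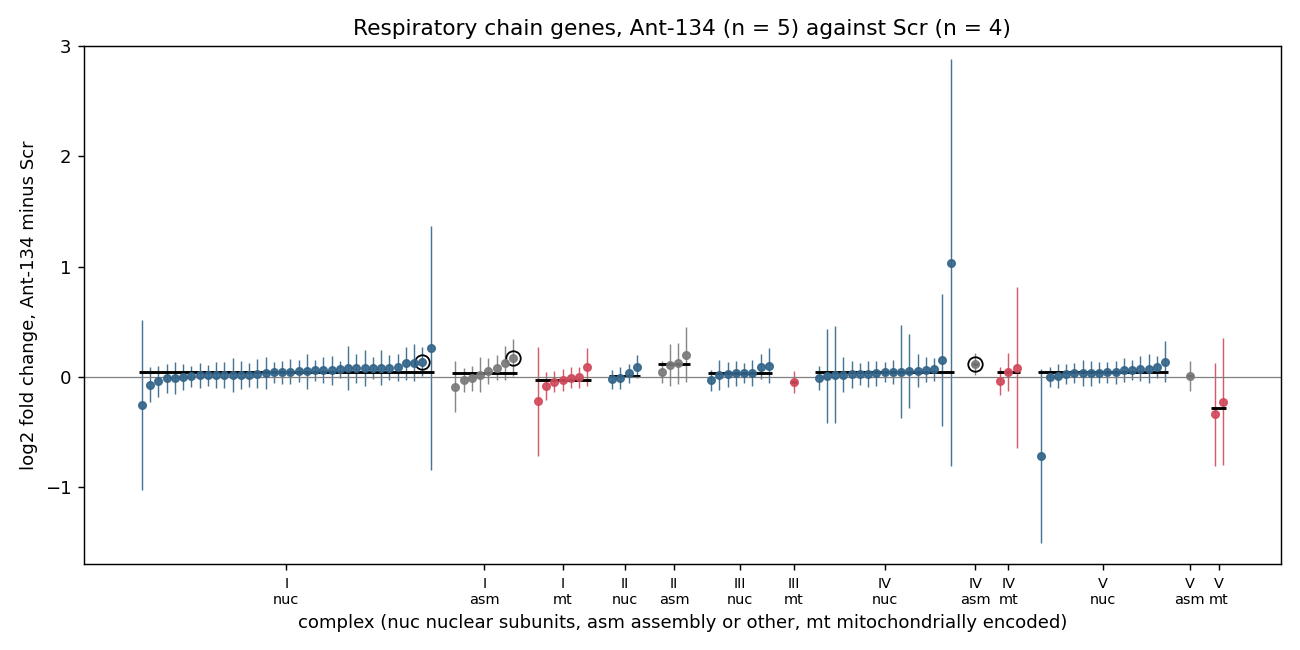
Log2 fold change of each of the 108 tested members (points) with its 95% interval (bars), sorted within complex and split into nuclear subunits (blue), assembly factors or others (grey) and mitochondrially encoded subunits (red). Black lines are medians of a set, circled points are the 3 members with an unadjusted p below 0.05, and the wide bars belong to genes such as Cox8b, Ndufs5, Atp5e and mt-Co3.

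Log2 fold changes of nuclear subunits were small, and 1 of 81 (1.23%) was called in edgeR, against 4.18% of all tested genes. The log2 fold change was above 0 for 69 of 81 (85.2%), against 51.2% of all tested genes, with a median of 0.04 against 0.0026 for all genes. That median corresponds to a fold of 1.03. The medians were 0.04 in complex I (30 of 36 above 0), 0.01 in complex II (2 of 4), 0.03 in complex III (7 of 8), 0.04 in complex IV (16 of 17) and 0.04 in complex V (14 of 16). These medians depended on single libraries. The median over all nuclear subunits was 0.07 without Ant-134 replicate 4, 0.015 without Ant-134 replicate 5 and 0.018 without Scr replicate 1. By complex, without Ant-134 replicate 4 they were 0.07 in complexes I, III and V and 0.08 in complex IV. Without Ant-134 replicate 5 they were 0.0065, 0.012, 0.02 and 0.024 in complexes I, III, IV and V, and without Scr replicate 1 they were 0.018, -0.0076, 0.0052, 0.013 and 0.028 in complexes I to V. Leaving out Scr replicate 2 gave 0.07 in complex IV, leaving out Ant-134 replicate 1 gave 0.025 in complex V, and leaving out Scr replicate 4 gave 0.034 in complex II. In 77 of the 81 genes the log2 fold change was within 0.2 of 0, and 71 had a 95% interval inside -0.3 to 0.3. The nuclear medians of the 5 complexes were each smaller than the spread between mice described next.

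Among the subassemblies of complex I, the Q module, where electrons reach ubiquinone, had 8 of 8 genes above 0 with values from 0.00 to 0.08. The N module, which oxidises NADH, had 7 of 8 above 0, and the membrane arm had 15 of 20 above 0, with a median of 0.05 for both. Of the Fo part of complex V, the membrane rotor and its stalks, 11 of 11 tested nuclear genes were above 0, led by Atp5k at 0.14. The assembly factors and related genes were above 0 in 11 of 14, with a median of 0.07. All 4 assembly factors of complex II had positive values, which were 0.20 for Sdhaf1, 0.12 for Sdhaf4, 0.11 for Sdhaf3 and 0.04 for Sdhaf2, and none of them passed the test. Among the subunits of complex II, Sdhc was highest at 0.09, short of the threshold, and Sdhd lowest at -0.02. In complex III, Uqcr11 was highest at 0.10 and the core subunit Uqcrc2 lowest at -0.03. Single libraries moved these values. Without Ant-134 replicate 4, Sdhc (0.13) and Uqcr11 (0.16) passed the unadjusted threshold, as did Atp5k (0.21), while Uqcr11 was 0.062 without Ant-134 replicate 5. Uqcrc2 ran from -0.068 without Scr replicate 1 to -0.0081 without Scr replicate 3, and Sdhd from -0.042 without Ant-134 replicate 4 to -0.0012 without Scr replicate 3.

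The medians of the nuclear subunits of complexes I, III, IV and V varied together from mouse to mouse in both groups. As the median deviation in log2 CPM from each gene's mean over the 9 libraries, nuclear complex I stood at 0.05, 0.00, 0.03, -0.13 and 0.12 in the Ant-134 mice and at -0.10, 0.01, -0.02 and 0.02 in the Scr mice. Both the lowest and the highest mouse had received Ant-134. The same 2 libraries bounded complex III (-0.13 and 0.10), complex IV (-0.15 and 0.09) and complex V (-0.09 and 0.07). Of 75 nuclear structural genes without the tissue-restricted isoforms, 42 had their lowest CPM in Ant-134 replicate 4 and 21 in Scr replicate 1, and 48 had their highest in Ant-134 replicate 5. Complex II spanned less, from -0.03 in Scr replicate 1 to 0.04 in Ant-134 replicate 3. Some nuclear members went the other way, since Ndufs1 (112.7 CPM), Ndufaf4 (33.96 CPM) and Ndufaf1 (18.34 CPM) were highest in Ant-134 replicate 4.

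Summed over these 75 genes, transcripts amounted to 10300 CPM ± 528 (SD, n = 5) with Ant-134 and 10090 CPM ± 293.4 (SD, n = 4) with Scr, with overlapping ranges of 9450 to 10850 and 9669 to 10340. The 85 cytosolic ribosomal protein genes had their lowest and highest medians in the same 2 libraries (-0.14 in Ant-134 replicate 4 and 0.13 in Ant-134 replicate 5), as had the 77 mitochondrial ribosomal protein genes (-0.07 and 0.09). These families shared the extremes but not the whole order, since the cytosolic ribosomal genes stood at 0.024 in Scr replicate 1. Citric acid cycle genes (0.015 in Ant-134 replicate 4 and -0.016 in Ant-134 replicate 5) and biogenesis regulators (0.034 and 0.027) did not have it. Total counts were 30897530 in Ant-134 replicate 4 and 30139600 in Ant-134 replicate 5, and the part of depth in these medians was not tested. Marker sets of other cells and states also differed in these 2 libraries. By the same measure, the 9 activity-regulated genes stood at 0.56 in Ant-134 replicate 5, the highest of the 9 libraries, and at -0.20 in Ant-134 replicate 4, the lowest with Ant-134. Oligodendrocyte markers were lowest (-0.54) and interneuron markers highest (0.18) in Ant-134 replicate 5, whereas principal neuron markers were highest (0.13) and choroid plexus markers lowest (-1.66) in Ant-134 replicate 4. The microglial sum differed by treatment, with 508.9 to 540.8 CPM with Ant-134 and 578.5 to 656.9 CPM with Scr, and all 10 principal neuron markers had log2 fold changes above 0 with 0 called (edgeR). The part of cell composition and of neuronal activity in the member values was not tested.

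**Figure D3:**
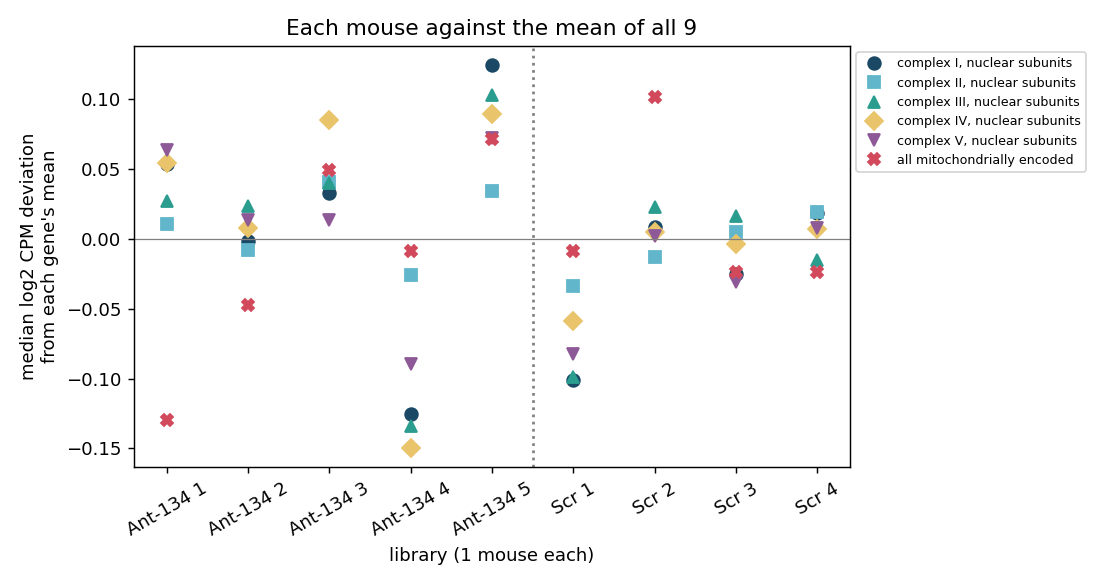
Median deviation in log2 CPM from each gene's mean, by library, for the nuclear subunits of the 5 complexes and for the 13 mitochondrially encoded genes. Nuclear complexes I, III, IV and V lie together at the bottom in Ant-134 replicate 4 and Scr replicate 1 and at the top in Ant-134 replicate 5, while the mitochondrially encoded genes are lowest in Ant-134 replicate 1 and highest in Scr replicate 2.

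Mitochondrially encoded members took 2.47 to 2.97% of all counts and nuclear members 0.968 to 1.12%. The libraries were made from poly-A RNA and mitochondrial mRNAs have short tails. The part of tail capture in these shares was not tested. Over the 13 genes the median of the log2 fold changes was -0.04, with 3 of 13 above 0 and 0 called by edgeR. With 1 mouse left out, that median ran from -0.07 (without Ant-134 replicate 5) to -0.0016 (without Scr replicate 2). The difference from the nuclear median was -0.07, which is within the spread of 0.09 between mice in that difference. Both medians kept their sign under each of the 20 alternatives computed, while the groups overlapped in the library medians of both sets. Summed CPM of the 13 genes was 27100 ± 1774 (SD, n = 5) with Ant-134 and 27820 ± 1276 (SD, n = 4) with Scr.

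The nuclear and mitochondrial genes followed the same mice only in part. The mitochondrial median was -0.13, -0.05, 0.05, -0.01 and 0.07 in the Ant-134 mice and -0.01, 0.10, -0.02 and -0.02 in the Scr mice. Ant-134 replicate 1 was lowest for the mitochondrial genes and above the mean for nuclear complexes I to V, whereas Ant-134 replicate 4 was lowest for nuclear complexes I, III, IV and V and near the mean for the mitochondrial genes. In Ant-134 replicates 3 and 5 both stood above the mean.

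The 7 most abundant mitochondrial genes had small log2 fold changes between treatments. The complex I genes mt-Nd1, mt-Nd2, mt-Nd4 and mt-Nd6 had log2 fold changes of -0.04, -0.0029, -0.03 and -0.01, each with an SE of 0.05, and mt-Nd5 had -0.08 (SE 0.06). mt-Cytb, which encodes cytochrome b of complex III, had -0.04 (SE 0.05), and mt-Co1, the catalytic subunit of complex IV, had -0.04 (SE 0.06). None of these 7 passed the test, and their 95% intervals lay inside -0.3 to 0.3. With 1 mouse left out, mt-Co1 ran from -0.073 to -0.0019 and mt-Nd4 from -0.057 to -0.0016. In the same fits mt-Cytb ran from -0.068 to -0.016, mt-Nd5 from -0.11 to -0.038 and mt-Nd1 from -0.069 to -0.018. The values of mt-Nd2 and mt-Nd6 changed sign. For mt-Cytb the CPM were 4808 ± 261 (SD, n = 5) with Ant-134 and 4952 ± 232.8 (SD, n = 4) with Scr. mt-Nd6 is encoded on the opposite strand of the genome and overlaps the 3′ end of mt-Nd5, and since the strand setting of the counting is not given in the sources used here, antisense reads cannot be told apart from its own.

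Levels of the mitochondrial genes fell into a high and a low set. mt-Co1 (6640 FPKM), mt-Nd1 (4310), mt-Cytb (4220), mt-Nd2 (2220), mt-Nd4 (1790), mt-Nd6 (1480) and mt-Nd5 (1130) were far above mt-Co2 (229), mt-Co3 (113), mt-Atp6 (112), mt-Nd3 (81), mt-Nd4l (34.6) and mt-Atp8 (4.93). In every library each gene of the first set exceeded each of the second. mt-Co1 alone made up 37.7% of the counts of the 13 genes.

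Of the 6 low genes, 5 have a near-identical nuclear copy. On mouse chromosome 1 the annotation used by the authors lists a run of unprocessed pseudogenes (GRCm38, 24611535 to 24616197) that repeats this stretch of the mitochondrial genome. mt-Co2 shares 99.5% of its 50-base windows with Gm28661, mt-Co3 99.9% with Gm28437, mt-Atp6 99.5% with Gm10925, mt-Nd3 98% with Gm28438 and mt-Nd4l 98.8% with Gm10222. Over the aligned bases each of these copies is identical to the mitochondrial gene, for example 783 of 783 bases for mt-Co3 and 681 of 681 for mt-Co2. A read from such a stretch fits both places equally well. In the high set, mt-Nd4 shares 62.2% of its windows with Gm28439, and mt-Co1 shares 28.7% with Gm29216 and 51.1% with annotated genes elsewhere in all. mt-Atp8 has no annotated copy, although it lies between mt-Co2 and mt-Atp6, whose copies flank a stretch without a listed gene. How reads with 2 places were counted is not given in the sources used here, and its part in these levels was not tested.

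**Figure D4:**
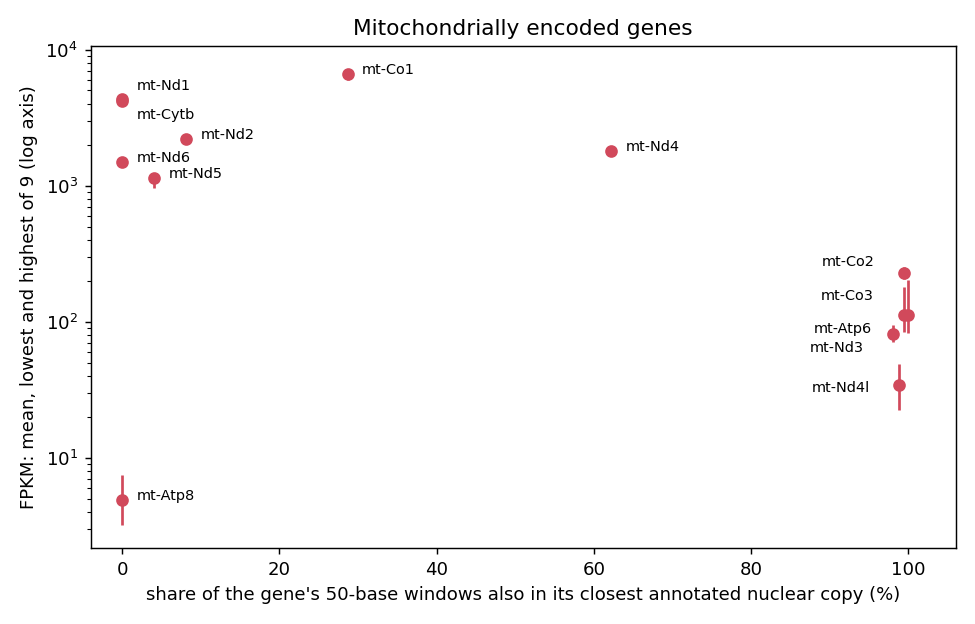
Mean FPKM (points, log axis) with the lowest and highest of 9 libraries (bars) of the 13 mitochondrially encoded genes, against the share of each gene's 50-base windows that also occur in its closest annotated nuclear copy. The 5 genes at 98 to 99.9% lie between 34.6 and 229 FPKM, and of the other 8 only mt-Atp8 lies below 1130 FPKM.

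The genes with a near-identical copy also held the isolated high values among mitochondrial members. mt-Co3 had 65.8, 72.7, 79.9, 81.3 and 160 CPM with Ant-134 and 76.4, 120, 72.4 and 78.4 CPM with Scr. Ant-134 replicate 5 and Scr replicate 2 stood apart, and the log2 fold change of 0.08 (SE 0.31) became -0.21 without Ant-134 replicate 5. Some copies were high in the same mouse, since Gm28437, the copy of mt-Co3, was highest in Scr replicate 2 (75.3 CPM, with 42.2 to 63.2 CPM in the other 8), where Gm10925, the copy of mt-Atp6, was at 120 CPM. Others were high elsewhere, with Gm28661 at 315 CPM in Ant-134 replicate 1 (123 to 157 CPM in the other 8) and Gm10925 at 176 CPM in Ant-134 replicate 2 (68.3 to 120 CPM in the other 8).

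mt-Atp6 and mt-Atp8, the mitochondrial subunits of complex V, had log2 fold changes of -0.34 (SE 0.20) and -0.22 (SE 0.27). For mt-Atp6 the CPM were 57.9, 79.7, 67.6, 78.3 and 60.5 with Ant-134 and 71.9, 125, 70.2 and 80.9 with Scr. Scr replicate 2 was the only library above 81 CPM. Without that library the median of both genes was -0.05, and with the copies' counts added to mt-Atp6 its log2 fold change was -0.13. That sum was 256 CPM in Ant-134 replicate 2, against 128, 149, 164 and 129 CPM in the other Ant-134 libraries and 152 to 245 CPM with Scr. No difference in the mitochondrial genes of complex V was detectable with this precision. mt-Nd4l had -0.22 (SE 0.22), mt-Nd3 0.09 (SE 0.08) and mt-Co2 0.04 (SE 0.08). With the copies' counts added these became -0.26 (SE 0.19), 0.015 (SE 0.08) and 0.22 (SE 0.15), and none passed the test. The sum for mt-Co2 was 483 CPM in Ant-134 replicate 1, 296 to 326 CPM in the other Ant-134 libraries and 283 to 324 CPM with Scr. With 1 mouse left out, mt-Nd4l ran from -0.38 (without Ant-134 replicate 3) to -0.059 (without Scr replicate 2), mt-Nd3 from 0.033 (without Ant-134 replicate 4) to 0.14 (without Scr replicate 2) and mt-Co2 from -0.0018 (without Scr replicate 1) to 0.096 (without Scr replicate 4).

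Among nuclear members, the counts of Ndufs5 mirrored those of a copy. Ndufs5 (chromosome 4, 123712710 to 123718202, minus strand), an accessory subunit of complex I, had 53.4, 24.7, 55.8, 19.0 and 24.8 CPM with Ant-134 and 20.1, 52.9, 22.3 and 22.5 CPM with Scr. A set of 3 libraries (Ant-134 replicates 1 and 3 and Scr replicate 2) lay at 52.9 to 55.8 CPM and the other 6 at 19.0 to 24.8 CPM, with nothing between. The processed pseudogene BC002163 (chromosome 16, 42955631 to 42955949) was the mirror image, with 31.5 to 34.3 CPM in those 3 libraries and 60.0 to 71.3 CPM in the other 6. The sum of both was 85.1, 85.8, 90.1, 83.7 and 96.0 CPM with Ant-134 and 80.0, 84.4, 87.0 and 83.1 CPM with Scr.

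The sum thus varied by 1.2 times between the extreme libraries where Ndufs5 alone varied by 2.94 times. The within-group SD in log2 CPM was 0.69 for Ndufs5 and 0.07 for the sum. Ndufs5 alone had a log2 fold change of 0.26 (SE 0.47) and the sum 0.08 (SE 0.05), and neither passed the test. Ndufs5 alone ran from 0.043 without Ant-134 replicate 3 to 0.72 without Scr replicate 2. These summed fits were chosen after the values were seen. BC002163 aligns to the longest Ndufs5 transcript, Ndufs5-203, over 319 bases, of which 317 are identical. Both differing bases, T328C and A352G counted from the 5′ end of the transcript, lie in the coding part and are shown in capitals with their flanks, since within this stretch only reads that cover them differ between the gene and the copy. Reads were not analysed here, so that the bases these mice carry at both positions are not known, and their part in the values of the 3 and the 6 libraries was not tested.

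Ndufs5 at 328: aacagccctaTaagaacgccg
BC002163 at 328: aacagccctaCaagaacgccg
Ndufs5 at 352: ggtgccacgcAtttgaaaaag
BC002163 at 352: ggtgccacgcGtttgaaaaag

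**Figure D5:**
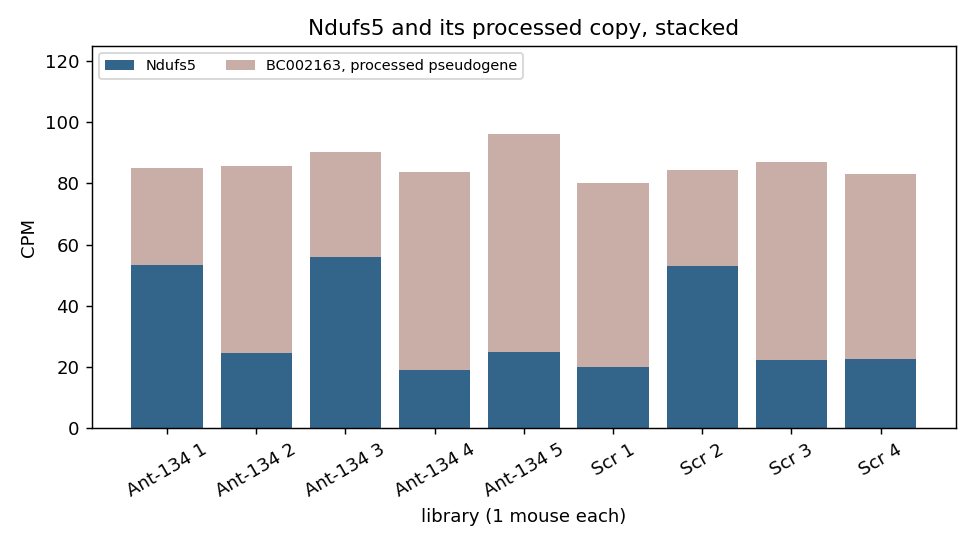
CPM of Ndufs5 (blue) and of its processed pseudogene BC002163 (pale), stacked for each of the 9 libraries. Ndufs5 is at 52.9 to 55.8 CPM in 3 libraries and at 19.0 to 24.8 CPM in 6, while the stacked total stays between 80.0 and 96.0 CPM.

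Ndufa12, a subunit of the NADH-oxidising module, behaved similarly but less completely. It had 18.7 to 45.3 CPM in the 9 libraries, its copy Gm15920 had 23.7 to 39.7 CPM, and their sum had 49.3 to 74.1 CPM. The log2 fold change was -0.25 (SE 0.33) for Ndufa12 and -0.10 (SE 0.10) for the sum, and Ndufa12 alone ran from -0.45 without Scr replicate 2 to -0.098 without Scr replicate 4. In all, 17 of 108 tested members (7 mitochondrial, 10 nuclear) have an annotated copy that holds at least 10% of their 50-base windows. For the other nuclear genes of this kind the copy was mostly a small fraction of the member, such as 2.24 CPM of Gm10175 beside 78.3 CPM of Atp5g2 with Ant-134.

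Atp5e, the epsilon subunit of ATP synthase, had the lowest fold change of all members. The CPM were 46.9, 62.4, 34.0, 25.4 and 40.1 with Ant-134 and 37.7, 64.7, 93.1 and 80.0 with Scr. Scr replicate 1 lay within the Ant-134 range, and the other 3 Scr libraries lay above all 5 Ant-134 libraries. The log2 fold change was -0.72 (SE 0.34, 95% interval -1.51 to 0.07, edgeR p = 0.068; two-sided exact permutation p = 0.0873), and DESeq2 gave -0.72 with p = 0.029. Atp5e passed the unadjusted threshold in 6 of 19 alternatives, which were DESeq2, edgeR without robust fitting, both limma fits, and the fits without Ant-134 replicate 2 (-0.91) and without Scr replicate 1 (-0.92). No annotated gene shares a 50-base window with it. The other genes of the catalytic F1 head lay between -0.0023 (Atp5b) and 0.06 (Atp5d).

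The precision of most members was good. The within-group SD in log2 CPM had a median of 0.09 over the 108 members and of 0.15 over all tested genes, and 90 of 108 members had a 95% interval inside -0.3 to 0.3. The members with wider intervals included the 6 low tissue-restricted isoforms, genes with copies such as Ndufs5, Ndufa12, mt-Co3 and mt-Nd4l, and also Atp5e and Atp5k, which are neither low nor copied to this degree.

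Of 160 tested genes from the wider pathway (assembly factors outside the name rule, cytochrome c, mitochondrial ribosome, mitochondrial genome expression, citric acid cycle, nucleotide exchange and biogenesis regulators), 2 were called (1.25%, each with an adjusted p = 0.998 in edgeR), both higher with Ant-134, beside 4.18% of all tested genes called and 1.49% called higher, and the median log2 fold change was 0.02. Suclg1, a subunit of succinyl-CoA ligase in the citric acid cycle, had 93.28 to 98.52 CPM with Ant-134 and 83.8 to 93.82 CPM with Scr (log2 fold change 0.10, SE 0.04). Cox10, which farnesylates heme for complex IV, had 24.28 to 25.45 CPM with Ant-134 and 21.42 to 23.38 CPM with Scr. Its groups did not overlap, as for 1.54% of all tested genes (log2 fold change 0.13, SE 0.05). Both genes were on the study's list from these samples, and neither direction is independent evidence. Of the 77 mitochondrial ribosomal protein genes, 58 were above 0, where 51.2% of all tested genes were, and 0 were called, and of the 10 biogenesis regulators 5 were above 0 and 0 were called (edgeR).

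Promoters were examined to describe a feature of the nuclear subunits that the name rule did not use. RefSeq promoter windows on GRCm38.p6 (250 bases before to 50 after the start) were matched for 67 of 84 nuclear structural members. The palindromic core of the NRF1 motif (nuclear respiratory factor 1, a regulator of many respiratory genes), whose letters are the capitals in the sequences below, occurred in 5 of 67 (7.46%) and in 290 of 27025 genes with a window (1.07%). Both strands were covered, since the motif reads the same on each. The 5 matches are shown with 10 bases on each side, written along the strand of the gene.

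Ndufa11: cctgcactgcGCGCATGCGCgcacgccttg
Uqcrc1: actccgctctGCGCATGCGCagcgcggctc
Cox6a1: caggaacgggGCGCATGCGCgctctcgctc
Atp5g2: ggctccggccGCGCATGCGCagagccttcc
Atp5k: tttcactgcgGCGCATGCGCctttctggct

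These 5 genes had log2 fold changes of 0.14 (Ndufa11), 0.03 (Uqcrc1), -0.01 (Cox6a1), 0.04 (Atp5g2) and 0.14 (Atp5k), which lie within the range of members without a match. A match says nothing of binding in these mice, and a window without one lacks only these letters.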

How the data were processed

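Total RNA of 1 hippocampus per mouse was sequenced from poly-A libraries. Per the paper and the labels, the authors aligned reads to GRCm38 (mm10) with HISAT2 2.0.5, counted them per Ensembl gene with featureCounts 1.5.0-p3 and called bases with CASAVA 1.8. The authors deposited raw counts and, beside them, FPKM normalized for library size and gene length. Members, complexes and gene lists were chosen with earlier results of these data known.

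Counts were fitted in edgeR 4.0.16 (R 4.3.3) with filterByExpr (minimum count 10), TMM scaling and the robust quasi-likelihood test, Ant-134 against Scr, without covariates. The p-values were adjusted by Benjamini-Hochberg over 19782 genes, and the unadjusted 0.05 is the study's threshold. CPM use the TMM libraries. Single members were also compared by two-sided exact permutation over the 126 splits of 9 mice, whose smallest p is 0.00794. Alternatives used DESeq2 1.42.0, limma 3.58.1 on FPKM in log2 with pseudocounts of 1 and 0.1, other scalings and filters, covariates and leaving out each mouse.

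Copies were found by exact 50-base windows of GENCODE vM21 transcripts on either strand, and 3′ UTRs were taken from that annotation. Named members were those with p below 0.05 or groups that did not overlap, the highest and lowest subunit by fold change and the most abundant member of each complex, the 13 mitochondrial genes and the isoform pairs. Depth of 28583298 to 41978113 counts puts 3 counts at 0.0715 to 0.105 CPM. Other members were named after their values were seen.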

Additional observations from a re-analysis of the deposited data

Results flagged for a closer look

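In 14 of 144 groups of values examined, 1 library stood apart from the rest of its group by Dixon's ratio. The usual rate of about 1 in 20 holds for independent values. These groups share genes and libraries, so the count is not set against chance. Cox8b was at 4.60 CPM in Ant-134 replicate 1, with the next library at 1.42. Ndufs5 was at 52.9 CPM in Scr replicate 2 and its copy BC002163 at 31.5 CPM in the same library, each with the other 3 Scr libraries on the far side. mt-Co3 was at 160 CPM in Ant-134 replicate 5 and at 120 CPM in Scr replicate 2. Gm28661, the nuclear copy of mt-Co2, was at 315 CPM in Ant-134 replicate 1, and Gm10925, the copy of mt-Atp6, at 176 CPM in Ant-134 replicate 2. Among smaller departures, Sdhc was at 78.9 CPM in Scr replicate 4, Cox6b1 at 146 CPM in Ant-134 replicate 4, Ndufa4l2 at 3.24 CPM in Ant-134 replicate 3 and Cox7a1 at 1.39 CPM in Scr replicate 2. Scr replicate 1 had the lowest share of counts in nuclear members of its group (0.998%) and the lowest nuclear complex IV median (-0.0585 in log2 CPM), and Scr replicate 2 the highest mitochondrial median (0.10).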

How the results depend on the processing

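With 5 against 4 mice, 90 of 108 members had a 95% interval inside -0.3 to 0.3 in log2. All genes called were 827 of 19782 as fitted and 1775 of 37454 without a filter on low counts, where more genes were tested. Members called were 7 of 108 (6.48%) with limma on either FPKM scale, where 4.66 to 4.68% of all genes were called, and 0 to 14 (12.96%, without Ant-134 replicate 4) when 1 mouse was left out, where all genes called were 3.14 to 4.97%. Atp5e gained a call in 6 of 19 alternatives. The nuclear median stayed between 0.01 and 0.07 and the mitochondrial median between -0.07 and -0.0016 under every alternative. The complex II median was 0.0686 with assembly factors included and -0.0076 without Scr replicate 1. The median of the mitochondrial genes of complex IV, 0.04 as fitted, fell below 0 in 4 of 20 alternatives, with the replicate block (-0.0738), without Ant-134 replicate 5 (-0.0726), with copies added (-0.0295) and without Scr replicate 1 (-0.0018). Sample number was also fitted as a replicate block. Deviations of same-numbered mice had correlations of -0.115 to 0.012, and the labels do not say whether the numbers pair the mice. Under the block Cox7a2l and Ndufa11 lost their calls and mt-Atp6 gained one. Adding the copies' counts, chosen after seeing the data, ended the call of Cox7a2l.

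Direction changed in 14 named members, none of them called. With the replicate block, mt-Co3 was -0.19, Cox4i2 -0.0143, Cox4i1 -0.00514, Cox6b2 -0.10 and Cox7a1 -0.0112. mt-Nd2 was 0.00196 in DESeq2 and 0.00748 with the Y-linked gene covariate, Cox6b2 was -0.00712 in limma with a pseudocount of 0.1, and mt-Co3 was -0.0295 with copies added. Over the leave-one-out fits, values ran from -0.028 to 0.023 for mt-Nd2, -0.0283 to 0.0143 for mt-Nd6, -0.13 to 0.13 for Cox4i2, -0.0849 to 0.16 for Cox6b2, -0.0596 to 0.40 for Cox6a2, -0.0312 to 0.12 for Ndufa4l2, -0.0376 to 0.0224 for Cox6a1, -0.21 to 0.28 for mt-Co3, -0.00247 to 0.0656 for Cox4i1, -0.0146 to 0.16 for Cox7a1, -0.00176 to 0.0956 for mt-Co2, -0.00632 to 0.055 for Atp5a1, -0.00591 to 0.0692 for Atp5g3, -0.40 to 0.00403 for mt-Atp8. The cause was not tested.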
